A study of Arabidopsis thaliana with 12 samples.

Results

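The genes described here are 133 nuclear genes of Arabidopsis thaliana whose signal was far higher in shoots than in roots of seedlings. A gene was taken when its probe set was linked to exactly 1 nuclear gene and the mean of the 6 shoot arrays exceeded the mean of the 6 root arrays by at least 4 log2 units, which is 16-fold. Of 16511 single-gene nuclear probe sets, 144 met this threshold. Of these, 11 were left out because their symbols were set aside: HPR, PSBY, PSBW, LHB1B2, COR15A, SBPASE, FMA (also known as FAMA), PORB, IAA29, PSAE-1 and SPCH. The remaining 133 probe sets stood for 133 different protein-coding genes. The genes were thus chosen by the measured organ difference, so it is given as a description with no test. The comparisons between genotypes within an organ do not enter that difference in this balanced design, and they are the tests reported.

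In the shoot, the chloroplasts of green cells capture light in 2 photosystems of the thylakoid membrane, and electrons passed between them drive the synthesis of NADPH and ATP. The NDH complex returns electrons to the chain around photosystem I, and the Calvin cycle uses the products to fix carbon dioxide, with photorespiration as a side path. Most of the proteins involved are encoded in the nucleus and imported into the chloroplast, and their genes are weakly expressed in roots, whose plastids are mostly not green. Shoots also contain leaf primordia, in which transcription factors of the YABBY family mark the lower, abaxial side.

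The platform was the Affymetrix Arabidopsis Gene 1.0 ST array, and 12 arrays were run, with 3 per group: the roots and the shoots of the wild type, and the same organs of aladin seedlings. The wild type was the accession Wassilewskija-4, and the other seedlings belonged to a line labelled aladin, for which the labels name no allele. All seedlings had been stratified for 3 days and grown for 10 days on vertical agar plates with sucrose, and their roots and shoots were separated and frozen with no further treatment. The labels call the arrays biological replicates but do not say how many seedlings each held, and p-values measure the spread between these samples. The values were signals on the log2 scale, and the array medians lay between 5.86 and 6.0. No detection calls were present, and signals below 4.1, the 25th percentile of the mean signals of all probe sets, are called dim here. ALADIN (AT3G56900), which encodes a nuclear pore protein, gave 8.42, 8.40 and 8.36 on the wild-type root arrays and 12.58, 12.73 and 12.75 on the aladin root arrays. It gave 7.71, 7.80 and 7.71 in wild-type shoot and 12.41, 12.35 and 12.41 in aladin shoot. The probe set was thus brighter in the libraries labelled aladin, by 4.29 in root and 4.65 in shoot, which goes against a label of lost transcript, and every direction below is by label.

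The 133 genes were bright in shoots and much weaker in roots, where most nonetheless lay above the dim level. The median level was 9.62 in wild-type shoot and 9.56 in aladin shoot, against 4.39 in wild-type root and 4.92 in aladin root. Single genes ranged from 7.15 to 12.25 in wild-type shoot and from 2.77 to 7.91 in wild-type root, so the brightest genes in root exceeded the dimmest in shoot. Within each gene, however, the lowest shoot array lay above the highest root array in all 133 cases. In wild-type root 54 of the genes were dim and in aladin root 38, whereas none was dim in either shoot group. Taken as linear signal, the root reached a median of 3.22% of the shoot level in the wild type (range 0.348% to 7.07%) and 4.1% in aladin (0.592% to 10.8%). In such bulk samples, fewer cells of a type and less RNA per cell cannot be told apart.

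**Figure D1:**
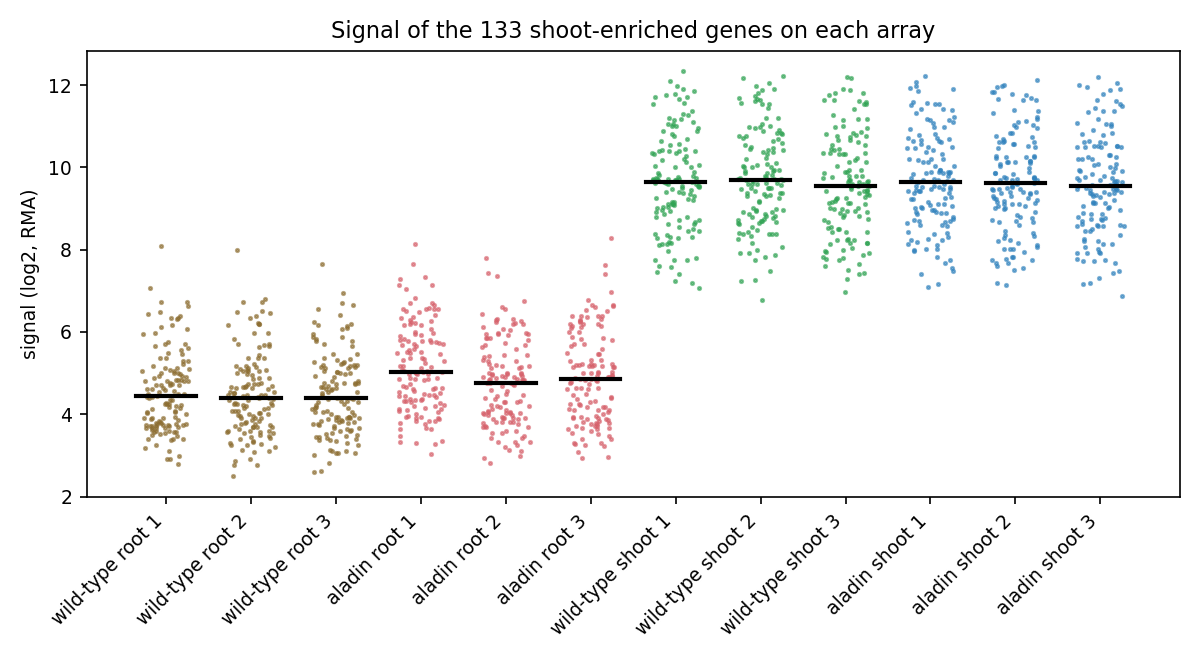
Distribution of the log2 signal of the 133 shoot-enriched nuclear genes (vertical axis) on each of the 12 arrays, with 1 point per gene and the median as a black line. Root arrays have medians from 4.39 to 5.03 and shoot arrays from 9.54 to 9.69, and aladin root 1 has the highest median of the root arrays.

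The pooled organ difference had a median of 4.83, a 28.5-fold excess in shoot, with 53 genes at 5 or more and 11 at 6 or more. It was widest for AT3G16670, with 3.66, 4.08 and 3.62 in wild-type root, 4.29, 3.32 and 3.72 in aladin root, 11.78, 11.80 and 11.75 in wild-type shoot and 11.16, 11.02 and 11.35 in aladin shoot. The difference in signal for this gene was 7.70, or 208-fold, and its root arrays of both genotypes overlapped at the dim end of the scale. For the 42 genes whose pooled root level was dim, the root signal was not shown to lie above background, so these folds describe signals, the true ratio may be larger and the order among such genes is not settled. The next were AT3G16660, its neighbour on chromosome 3, at 7.10, AT5G16030 at 6.48, AT4G17245 at 6.47, AT5G42530 at 6.46, AT4G22485 at 6.38, NdhL at 6.28, AT2G32880 at 6.13, AT3G48420 at 6.10 and AT1G70820 at 6.06. Just inside the threshold lay PIF7, AT3G22210 and AT5G55620, each at 4.02. Just outside it lay AT1G76450 at 3.999, AT3G20362 at 3.97 and AT1G04350 at 3.96. In each genotype taken alone, 113 of the 133 genes reached 4.

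Most of the genes are known in the annotation by locus number only, and 20 carry a symbol. Among these, NdhL, NdhN and NdhU are subunits of the NDH complex, CRR42 helps to assemble it, and PIFI acts with it in chlororespiration. PSAN is a subunit of photosystem I on the lumen side, PSB27 serves the assembly and repair of photosystem II, ATPC1 is the gamma subunit of the chloroplast ATP synthase, and CCB3 takes part in attaching heme to cytochrome b6. CaS is a calcium sensor of the thylakoid membrane, and TAPX is an ascorbate peroxidase that removes hydrogen peroxide there. In carbon metabolism, PRK makes the carbon dioxide acceptor of the Calvin cycle, ALDH11A3 is a non-phosphorylating glyceraldehyde-3-phosphate dehydrogenase, LrgB carries glycolate and glycerate across the chloroplast envelope, and AOR reduces reactive carbonyls. YAB2 and YAB3 are YABBY transcription factors, PIF7 is a bHLH factor of shade responses, iqd21 belongs to a family of calmodulin-binding proteins, and CCL is listed by name only. Through synonyms, AT1G52220 is CURT1C, which bends thylakoid membranes, and AT1G74470 is geranylgeranyl reductase, which supplies the phytyl tail of chlorophyll and tocopherol.

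In root, the brightest of the 133 were AT1G74470 (7.91 ± 0.23 in wild type, 7.47 ± 0.16 in aladin; SD, n = 3 as for all such errors), CCL (6.64 ± 0.13 and 7.85 ± 0.27), TAPX (6.94 ± 0.13 and 7.24 ± 0.25) and PSB27 (6.41 ± 0.20 and 6.78 ± 0.31). The dimmest were AT1G49975 (2.77 ± 0.15 and 2.94 ± 0.11), AT2G05310 (2.94 ± 0.15 and 3.17 ± 0.11), CCB3 (3.1 ± 0.015 and 3.17 ± 0.18) and AT4G21445 (3.22 ± 0.45 and 3.34 ± 0.13). Levels of different probe sets are not set against each other as transcript amounts, since each probe set has its own brightness. Chromosome 1 held 38 of the genes, chromosome 2 held 21, chromosome 3 held 24, chromosome 4 held 21 and chromosome 5 held 29. These shares of 28.6%, 15.8%, 18.0%, 15.8% and 21.8% stood beside 26.0%, 15.5%, 20.5%, 14.9% and 23.1% of all single-gene nuclear probe sets. The genes formed 4 pairs of direct neighbours: AT1G72640 with AT1G72645, AT2G32870 with AT2G32880, AT3G16660 with AT3G16670, and AT4G22485 with AT4G22490.

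The first comparison asked whether these genes differ between aladin and wild type in the root, the organ in which they are weakly expressed. In the root libraries labelled aladin 35 of the 133 rose, 0 fell and 98 did not pass an adjusted p of 0.05 in limma, adjusted by the Benjamini-Hochberg method over 17481 probe sets. The share that rose was 26.3%, against 4.63% called higher (7.64% in either direction) among all tested probe sets and 4.21% among the other single-gene nuclear ones. For falls the share was 0%, against 3.01% of all tested, and at an unadjusted p under 0.05 there were 64 higher and 5 lower. The median difference was 0.30 on the log2 scale (quartiles 0.08 and 0.65), compared with -0.04 (quartiles -0.16 and 0.09) over all tested probe sets. The difference was positive for 110 of the 133 genes, or 82.7%, compared with 41.8% of all tested. The 35 that rose had a median of 0.85 and a lowest value of 0.53, and in each of them all 3 aladin root arrays lay above all 3 wild-type ones. Such a separation occurred for 54 of the 133 genes (40.6%; 13.4% of all tested), and the opposite one for 4 (3.01%; 18.3% of all tested).

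Of the 35, 15 rose at least 2-fold, a step reached together with the p-value threshold by 1.52% of all tested probe sets, and 20 rose by less. The widest rise was that of AT5G42530, with 4.62, 3.24 and 4.39 in wild-type root and 6.71, 6.45 and 8.27 in aladin root. The groups did not overlap, although both spread widely, and aladin root 3 was the highest. The difference was 3.06 (SE 0.43, adjusted p = 0.00079). This SE rests on 1 spread over all 12 arrays, while the SD was 0.74 and 0.99 in root against 0.08 and 0.19 in shoot. With only the 6 root arrays fitted, the adjusted p in limma was 0.0113. ALDH11A3 gave 4.72, 4.53 and 4.52 in wild-type root and 6.66, 6.06 and 6.62 in aladin root, a rise of 1.85 (SE 0.14, adjusted p = 7.6e-06). Its groups stood far apart in relation to their spread. AT1G09310 gave 4.83, 4.96 and 4.65 against 6.55, 6.26 and 6.66, a rise of 1.68 (SE 0.11, adjusted p = 2.9e-06). AT1G64710 gave 4.25, 4.34 and 4.31 against 6.08, 5.60 and 6.26, also a rise of 1.68 (SE 0.13, adjusted p = 1.3e-05). In both of these the 3 aladin arrays lay above the wild type without overlap, although those of AT1G64710 spread by an SD of 0.34.

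AT5G58390 gave 3.74, 4.08 and 3.76 in wild-type root and 5.18, 5.0 and 6.37 in aladin root, a rise of 1.66 (SE 0.28, adjusted p = 0.00314). AT2G25510 gave 3.65, 4.39 and 4.04 against 5.31, 5.0 and 6.39, a rise of 1.54 (SE 0.29, adjusted p = 0.00575). In both genes the wild-type levels lay near the dim limit and aladin root 3 stood above the other aladin arrays. The next rises were 1.48 for AT4G17245 (SE 0.24), 1.22 for AT4G21650 (SE 0.19), 1.21 for CCL (SE 0.14), 1.21 for NdhL (SE 0.13), 1.17 for AT2G42220 (SE 0.13) and 1.1 for AT3G46490 (SE 0.12). Their adjusted p-values in limma ran from 0.00013 to 0.00198. The neighbours AT4G22485 and AT4G22490 differed by 1.39 and 1.01 without passing (adjusted p = 0.118 and 0.127). In both, the 3 aladin root arrays lay above the 3 wild-type ones, but much of the difference came from aladin root 3. AT4G22485 gave 4.89, 4.04 and 6.77 in aladin root, and AT4G22490 gave 4.32, 3.92 and 5.82.

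**Figure D2:**
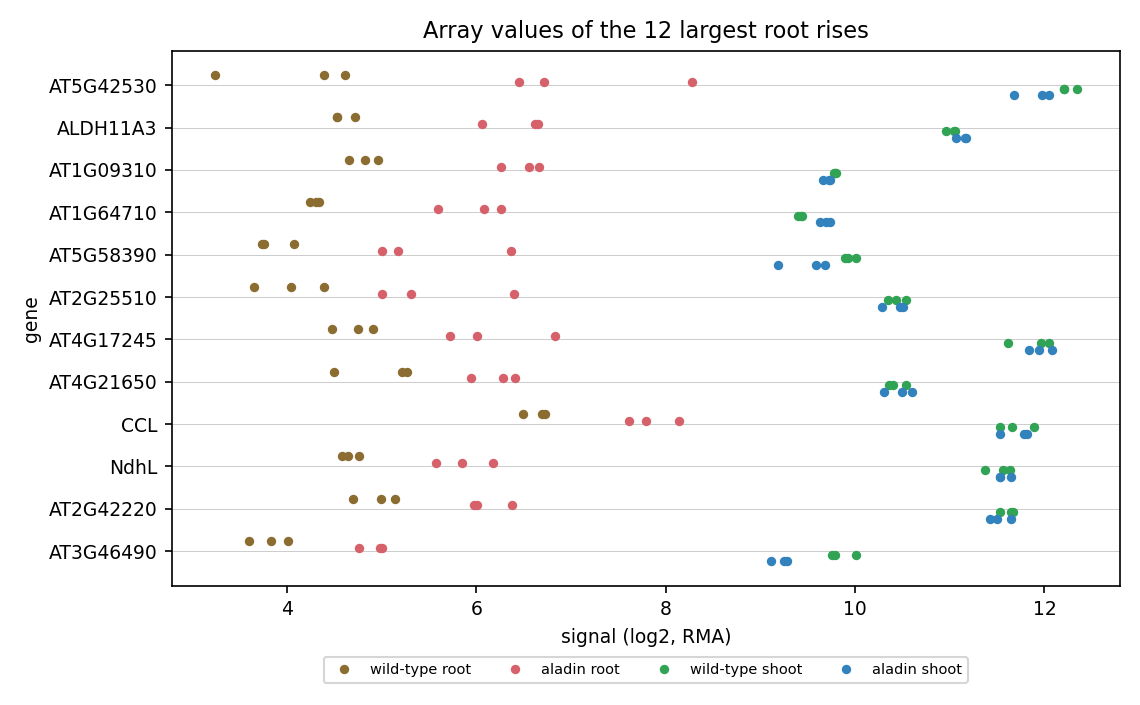
Log2 signal (horizontal axis) on each of the 12 arrays for the 12 shoot-enriched genes with the largest rise in aladin root (vertical axis), with 1 point per array, coloured by group. In every gene the 3 aladin root points lie above the 3 wild-type root points and all shoot points lie far to the right, and AT5G42530 has the widest spread in root.

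By role, the genes around the NDH complex were divided. NdhL gave 4.58, 4.64 and 4.76 in wild-type root and 6.18, 5.85 and 5.58 in aladin root in groups that did not overlap. PIFI gave 4.80, 4.47 and 4.81 against 5.46, 5.31 and 5.02 and rose by 0.57 (SE 0.13, adjusted p = 0.0167). This call did not hold without wild-type root 2 (adjusted p = 0.0733). NdhU (0.24), NdhN (0.05) and CRR42 (0.04) did not pass, with adjusted p-values of 0.282, 0.916 and 0.943 in limma.

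For the photosystems, PSAN gave 6.31, 6.18 and 5.87 in wild-type root and 7.13, 6.76 and 6.65 in aladin root, a rise of 0.73 (SE 0.14, adjusted p = 0.00666) between groups that did not overlap. PSB27 differed by 0.38 (adjusted p = 0.188) and did not pass. ATPC1 gave 6.74, 6.52 and 6.56 against 6.71, 6.13 and 6.14, a difference of -0.28 (adjusted p = 0.295), with overlapping groups. CaS, at 4.64, 4.12 and 4.55 against 5.25, 4.89 and 4.79, rose by 0.54 (SE 0.15, adjusted p = 0.0496), a call at the edge of the threshold that was lost under 17 of 22 other settings, with an adjusted p of up to 0.174 without wild-type root 2. CCB3 (0.08), CURT1C (0.00) and TAPX (0.30, adjusted p = 0.16) did not pass.

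In carbon metabolism, ALDH11A3 was the only symbol-bearing gene past the threshold. PRK gave 4.71, 4.09 and 4.37 in wild-type root and 5.34, 4.90 and 4.87 in aladin root, a difference of 0.65 just outside the threshold (SE 0.18, adjusted p = 0.0503), although its groups did not overlap. LrgB differed by 0.33 (adjusted p = 0.317) and AOR by -0.05 (adjusted p = 0.932). The lowest difference among the 133 was that of AT1G74470, geranylgeranyl reductase, with 8.08, 7.99 and 7.65 in wild-type root and 7.65, 7.35 and 7.41 in aladin root. At -0.44 (SE 0.12, adjusted p = 0.0526) it did not pass, and the groups came within rounding of each other at 7.65.

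Among the transcription factors, PIF7 gave 4.45, 4.25 and 4.33 in wild-type root and 5.04, 4.83 and 4.76 in aladin root and rose by 0.53 (SE 0.11, adjusted p = 0.0134). Without wild-type root 2 its adjusted p was 0.0618. YAB2 gave 3.5, 3.80 and 3.45 against 4.05, 3.55 and 3.66, and YAB3 gave 4.50, 4.22 and 4.12 against 4.48, 4.02 and 4.65. Both pairs of groups overlapped, and neither difference passed (0.17 and 0.10; adjusted p = 0.558 and 0.786), nor did that of iqd21 (0.35; adjusted p = 0.182). In all, 7 of the 20 genes with a symbol rose, with a median difference of 0.34. Of the 113 known by locus number 28 rose, with a median of 0.30. Over all tested probe sets, the share called higher in root was 4.63%.

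The differences in root were unevenly spread over the 133 genes. Over all tested probe sets, 4.63% were called higher in root. Of the 53 genes with an organ difference of 5 or more, 22 rose and the median difference was 0.63, whereas 13 of the 80 genes between 4 and 5 rose and their median was 0.18. Of the 42 genes whose pooled root level was dim, 4 rose (median 0.18), and of the 91 others 31 rose (median 0.37). By pooled shoot level, 6 of the 45 dimmest, 12 of the 44 middle and 17 of the 44 brightest genes rose, with medians of 0.19, 0.36 and 0.59. Across the 133 genes, Pearson's r between the root difference and the organ difference was 0.41, and it was 0.34 with the shoot level and 0.11 with the root level. These correlations are descriptions over genes measured on the same arrays. No share of all tested probe sets at matching levels is given, so the unevenness is not read as particular to these genes. Within the neighbour pairs the root differences were -0.14 and 0.59 (AT1G72640 and AT1G72645), 0.65 and -0.21 (AT2G32870 and AT2G32880), 0.72 and -0.01 (AT3G16660 and AT3G16670), and 1.39 and 1.01 (AT4G22485 and AT4G22490).

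**Figure D3:**
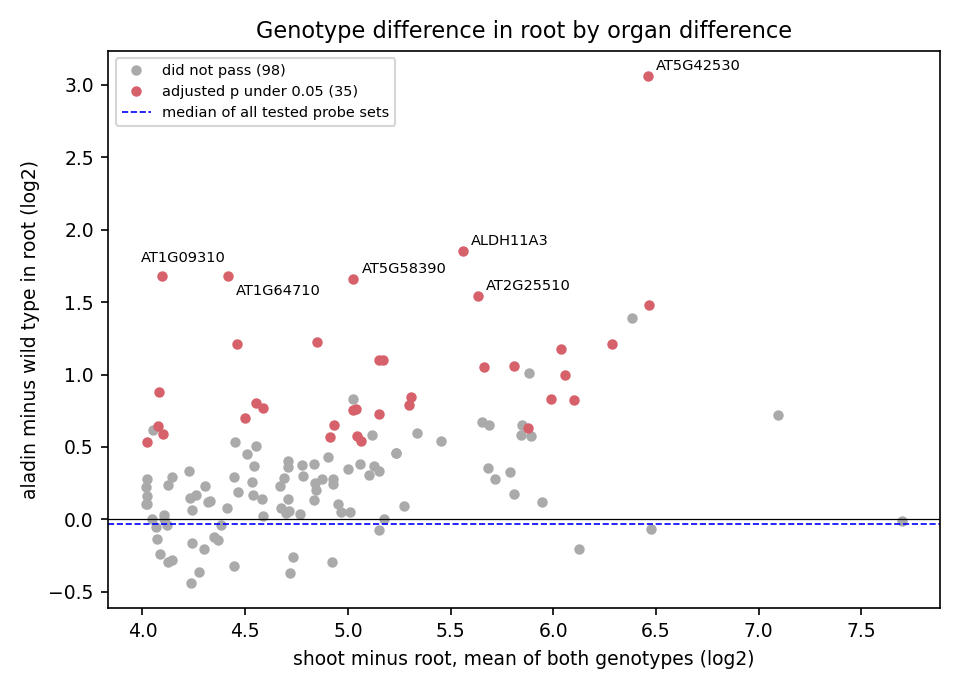
Genotype difference in root (aladin minus wild type, log2, vertical axis) against the pooled shoot minus root difference (log2, horizontal axis) for the 133 genes, with the 35 that passed in red. At an organ difference of 5 or more, 22 of 53 genes passed, and below it 13 of 80, against 4.63% of all tested probe sets called higher. The dashed line is the median of all tested probe sets, -0.04.

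The 3 aladin root arrays did not contribute equally. The mean of the 133 genes was 5.15, 4.77 and 4.90 on aladin root 1, 2 and 3, against 4.56, 4.49 and 4.51 on the wild-type root arrays. All 3 aladin arrays lay above all 3 wild-type arrays, with array 1 the highest. On aladin root 1, 2 and 3, 121, 91 and 100 of the genes were above their wild-type root mean. The highest aladin root value fell on array 1 for 72.9% of the 133 genes, against 40.4% of all tested probe sets. The spread within groups was also wider than usual: the median SD of the 133 genes was 0.17 in wild-type root and 0.27 in aladin root, against 0.10 and 0.11 over all tested probe sets, while in shoot it was 0.13 and 0.11 against 0.15 and 0.14. Without aladin root 1, 24 of the genes rose and 4 fell, the latter being AT1G74470, AT2G35260, AT3G44020 and ATPC1, and the median difference was 0.23. These counts stand without the share of all tested probe sets called in the same fit, so they are not set against a background.

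Other genes of green tissue were divided in root, where 4.63% of all tested probe sets were called higher and 3.01% lower. Of 10 nuclear marker genes outside the set, 5 rose, namely RCA, PSBW, PSAE-1, HPR and SBPASE, 1 fell, PSBY, and 4 did not pass (PORB 0.56, LHCB4.1 0.13, LHB1B2 -0.14 and LHCB4.2 -0.53), with a median difference of 0.52. Their summed linear signal ran from 1608 to 1632 on the wild-type root arrays, was 2535, 2036 and 1880 on aladin root 1, 2 and 3, and was 40411 or more on every shoot array. The summed linear signal of the 133 genes themselves ran from 3930 to 4148 in wild-type root, from 4805 to 6260 in aladin root, from 146977 to 158078 in wild-type shoot and from 144971 to 151650 in aladin shoot. Of 55 plastid-encoded genes, 25 rose in root and 0 fell in limma (34 of the 55 at an unadjusted p under 0.05), with a median of 0.28, and their summed signal was 224163 to 247965 in wild-type root and 272157 to 294396 in aladin root. The aladin root arrays did not keep 1 order: the 133 genes were highest on array 1 and lowest on array 2, the nuclear markers highest on 1 and lowest on 3, and the plastid genes highest on 3 and lowest on 1. The part of these green-tissue genes in the result was not tested.

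**Figure D4:**
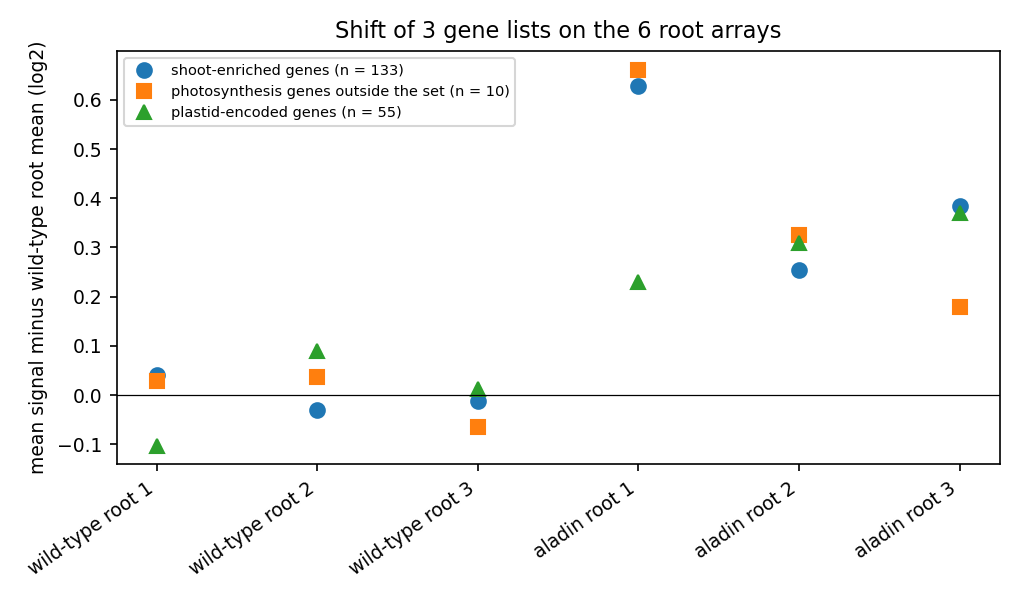
Mean log2 signal of the 133 shoot-enriched genes, of 10 green-tissue nuclear genes outside the set and of 55 plastid-encoded genes on each of the 6 root arrays, relative to the wild-type root mean of each list. The shoot-enriched genes lie at 0.63, 0.25 and 0.38 on aladin root 1, 2 and 3, and the plastid-encoded genes at 0.23, 0.31 and 0.37.

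The 3 measured genes of the stomatal lineage, SPCH, MUTE and FMA, were dim on average in both root groups, and 0 of them passed in root in limma (0 also at an unadjusted p under 0.05). Their summed linear signal was 30.0 to 38.4 in wild-type root and 28.6 to 41.7 in aladin root. The 2 measured root hair genes, EXPA7 and EXPA18, did not pass either (1 at an unadjusted p under 0.05) and summed to 275 to 432 in wild-type root and 266 to 293 in aladin root. Of the marker lists for endodermis, root meristem and cap, and xylem, no gene could be matched.

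Pathway lists gave few further genes, because only some of their entries matched a tested probe set, and several of those matched are members or markers named above. The shares of all tested probe sets called in root were 4.63% higher and 3.01% lower. In root, both of 2 measured photosystem I genes rose (PSAN and PSAE-1), as did 2 of 3 in the Calvin cycle (RCA and SBPASE) and the 1 measured in photorespiration (HPR). In photosystem II PSBW rose and PSBY fell among 3, and in electron transport, NDH and ATP synthase NdhL rose and PGRL1B fell among 4. Outside photosynthesis, 1 of 4 genes rose for salicylic acid and defence (SAG101), the 1 trichome gene fell (TRY), and so did the 1 starch gene (SBE2.2). By limma 0 passed of 4 for light harvesting (1 at an unadjusted p under 0.05), and 0, also unadjusted, of 5 for chlorophyll synthesis, 6 for leaf and shoot meristem development, 4 for stomata, 2 for clock and light signalling and 1 for glucosinolates. No entry of the carotenoid and tocopherol or cuticle and wax lists was matched.

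The second comparison asked the same in shoot, where the 133 genes are highly expressed. Here 1 gene rose and 3 fell, together 3.01%, against 2.96% of all tested probe sets (1.49% higher and 1.47% lower), and 129 did not pass in limma. The median difference was 0.00 to 2 decimals, against -0.02 over all tested, and 66 of the 133 differences were positive. The shares whose groups did not overlap were 14.3% with aladin higher (8.0% of all tested) and 12.0% with aladin lower (11.0% of all tested). In number and direction of calls the shoot values of these genes were thus close to the background. Among the markers, 2 of the 3 stomatal genes fell in shoot, SPCH by 0.82 (SE 0.18, adjusted p = 0.0369) and MUTE by 0.93 (SE 0.22, adjusted p = 0.0437), and FMA did not pass (-0.10). Their summed linear signal was 908 to 1107 in wild-type shoot and 620.0 to 673 in aladin shoot. Of the 55 plastid-encoded genes 4 rose in shoot, rps16, rpoC2, rpoB and psbM, by 0.41 to 0.64, and 0 of the 10 nuclear green-tissue markers passed in limma (0 also at an unadjusted p under 0.05). Of the pathway genes outside the marker lists, LHCB4.3 of light harvesting fell in shoot by 0.67 (adjusted p = 0.0117) and SAG101 rose by 0.37 (adjusted p = 0.0333) in limma. The part of these markers in the shoot values of the 133 genes was not tested.

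The clearest of the 4 was AT1G11850, with 8.61, 8.67 and 8.54 in wild-type shoot and 7.82, 7.50 and 7.71 in aladin shoot. Its groups were well apart, and it fell by 0.93 (SE 0.10, adjusted p = 0.00061). In root the gene was dim in both genotypes (3.78 ± 0.11 and 3.74 ± 0.07). AT3G46490 gave 9.76, 10.01 and 9.79 in wild-type shoot and 9.25, 9.11 and 9.28 in aladin shoot and fell by 0.64 (SE 0.12, adjusted p = 0.0166), whereas it rose in root. AT1G33811 gave 11.14, 11.21 and 11.01 against 10.71, 10.57 and 10.51 and fell by 0.53 (SE 0.12, adjusted p = 0.0425). AT1G18810 gave 7.46, 7.83 and 7.61 against 8.03, 8.25 and 8.25 and rose by 0.54 (SE 0.12, adjusted p = 0.0353). It was also the 1 gene that rose in both organs, with a rise of 0.70 in root from 3.05 ± 0.14 to 3.76 ± 0.15, both dim. AT1G11850 passed under each of 22 other settings. The other 3 calls were lost under 4, 17 and 10 of them, in the order given, and each was lost when only the 6 shoot arrays were fitted, with adjusted p-values of 0.0868, 0.136 and 0.171.

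The third comparison tested whether the genotype difference itself was unlike in the 2 organs. For 16 of the 133 genes, or 12.0%, it was higher in root than in shoot, against 1.43% of all tested probe sets (2.15% in either direction), and for 0 it was lower, against 0.715% of all tested (5 at an unadjusted p under 0.05). The median of the root difference minus the shoot difference was 0.37, against -0.01 over all tested, and it was positive for 102 genes. The gap was widest for AT5G42530, at 3.41 (adjusted p = 0.0133); this gene gave 12.34, 12.21 and 12.20 in wild-type shoot and 11.97, 11.68 and 12.04 in aladin shoot, a shoot difference of -0.35 that did not pass. For ALDH11A3 the gap was 1.75 (adjusted p = 0.00069), with 11.05, 11.06 and 10.97 in wild-type shoot and 11.16, 11.17 and 11.06 in aladin shoot, a shoot difference of 0.11 that did not pass. NdhL differed between organs by 1.17 (adjusted p = 0.00819), with 11.38, 11.57 and 11.64 against 11.53, 11.64 and 11.53 in shoot, groups that overlapped throughout. Of the 16 genes, 14 had risen in root. The other 2, AT1G11850 and AT1G33811, did not pass in root (-0.04 and 0.28) and fell in shoot.

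**Figure D5:**
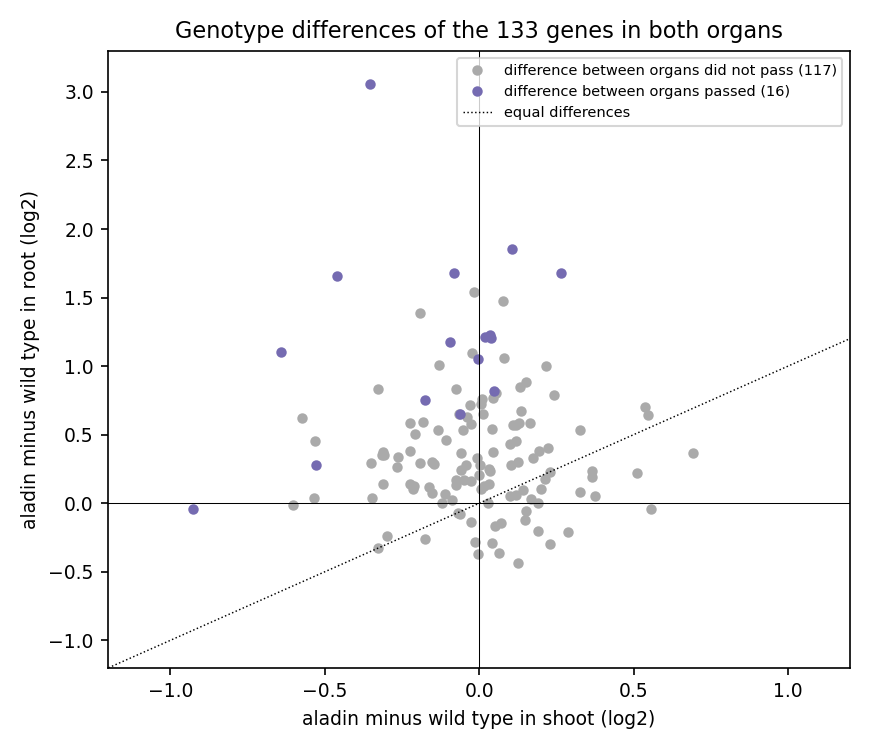
Genotype difference in root (log2, vertical axis) against that in shoot (log2, horizontal axis) for the 133 genes, coloured by whether the difference between organs passed (16 genes), with a dotted line where both differences are equal. Points reach from -0.93 to 0.69 along the shoot axis and from -0.44 to 3.06 along the root axis, and AT5G42530 is the highest.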

How the data were processed

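Total RNA of 12 samples was hybridised to 1 array each. As deposited by the authors, the values are log2 signals from RMA (per the submitters' processing notes), and the range of values matches that scale. The sources used here do not name the software, its version or the way probes were summarised. Of the 38408 probe sets in the table, the array's annotation links 17481 to at least 1 gene and 16722 to exactly 1. Symbols came from the RefSeq annotation of TAIR10.1. The build behind the array annotation is not known, so no coordinates are given.

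Groups came from the sample titles. Group means were fitted to all 12 arrays with limma 3.58.1 in R 4.3.3 (lmFit, eBayes; 8 residual and 3.67 prior degrees of freedom), with no replicate block and no filter on dim probe sets. Contrasts were aladin minus wild type in root, in shoot, and their difference, with Benjamini-Hochberg adjustment over 17481 probe sets and a threshold of 0.05 on the adjusted p. The number of arrays limits the precision. Tables and figures were made with Python 3.11, pandas 2.3.3 and matplotlib 3.10.9.

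The genes, the marker and pathway lists and the tests were chosen with earlier results of these data known. Genes were named by rank: the 10 widest organ differences, the 3 on either side of the threshold, the 12 largest root rises, those past the threshold in shoot, the largest differences between organs, the 4 brightest and 4 dimmest in root, members of the lists, genes with a symbol and direct neighbours. THO1, FDH and LCR were left out of the lists because the symbol belonged to another gene. Alternatives covered the prior, array weights, centring, normalization within organs, the probe sets tested, dim probe sets, replicate blocks, 1 organ at a time, each array left out, and other thresholds for the organ difference. Keeping FMA was chosen after seeing the data.

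The fit was tested on simulated data over 17481 probe sets with 200 changed. Changes of 1 and 0.5 log2 units were recovered for 94% and 31% of changed probe sets in root and for 95% and 46% in shoot, with 3.85% and 7.84% of calls false. For the difference between organs, 75% and 4% were recovered with changes planted in root (5.95% false calls) and 72% and 7% with changes planted in shoot (4.82% false calls). The simulated noise was independent between genes.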

Additional observations from a re-analysis of the deposited data

Results flagged for a closer look

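For 16 of the shoot-enriched genes the difference between aladin and wild type was unlike in root and shoot by limma's test of that difference, adjusted over 17481 probe sets. In all 16 the aladin minus wild type difference was higher in root than in shoot. They made up 12.0% of the shoot-enriched genes, against 1.43% of all tested probe sets called higher and 0.715% called lower. For AT1G11850 and AT1G33811 this went with a fall in shoot (-0.93 and -0.53), and neither passed in root (-0.04 and 0.28). The values below are the root difference minus the shoot difference on the log2 scale. AT5G42530 stood at 3.41, AT5G58390 at 2.12, AT1G09310 at 1.76, ALDH11A3 at 1.75 and AT3G46490 at 1.74. The last of these rose in root and fell in shoot. AT1G64710 stood at 1.41, AT2G42220 at 1.27, CCL at 1.19, AT4G21650 at 1.19, NdhL at 1.17 and AT1G21500 at 1.05. Below 1 lay AT1G49750 at 0.93, AT1G11850 at 0.89, AT1G33811 at 0.80, AT3G48420 at 0.77 and AT5G67385 at 0.71. Of the 16 calls, 10 were kept under all 21 other settings run for this comparison. AT5G67385 lost its call under 14 of them, with an adjusted p of up to 0.115 without wild-type root 2, AT4G21650 under 13, AT1G21500 under 12, AT3G48420 under 11, AT1G33811 under 10 and AT5G58390 under 3.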

How the results depend on the processing

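No shoot-enriched gene past the threshold changed direction under any alternative run. In root the number of genes past the threshold was 35 and lay between 26 and 47 over 22 alternatives, with 23 of the 35 kept under all of them and a median difference between 0.23 and 0.36. Array weights gave 47, of which 5 had fallen, and a trended robust prior gave 42, of which 3 had fallen. The counts under other settings are given without the share of all tested probe sets called under the same setting. A change in count is therefore not read as particular to these genes. Leaving out 1 array at a time gave 26 (without wild-type root 2) to 35 in root, 2 to 4 in shoot and 11 to 19 for the difference between organs, where the main count was 16 and all alternatives gave 11 to 23. The shoot count of 4 became 2 with all probe sets tested, 1 with array weights, 2 with arrays centred on their medians, 2 with the replicate block within organs and 1 with the 6 shoot arrays alone. It was also 2 without aladin root 3, aladin shoot 2, aladin shoot 3, wild-type root 3 or any 1 of the wild-type shoot arrays. The cause was not tested. With the organ threshold at 3.5 or 5 the set held 211 or 53 genes in place of 133. Arrays with the same replicate number did not deviate together (correlations of -0.057 to 0.097). With the replicate block within organs, 35 genes passed in root, 33 of them shared with the main result, 2 in shoot and 13 for the difference between organs. A random block across organs gave 34, 4 and 15. No detection calls were present, so for the 36 genes dim in both root groups the root values may lie near background.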
